A study of Mus musculus with 2 samples.

Results

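The type 2 cytokine locus of mouse chromosome 11 holds the genes of 3 signature cytokines of TH2 cells, Il4, Il5 and Il13, together with the neighbours Rad50, Kif3a and Irf1. Binding of PPARγ, a nuclear receptor activated by lipid ligands, was examined at these 6 of 21938 protein-coding genes. The 6 genes were taken by name, and a peak was counted when its centre lay in a gene body or within 100 kb of one. Of the 2537 PPARγ peaks in the genome, 1 met this rule. C57BL/6J naive CD4+ T lymphocytes were activated in TH2-polarising culture, transduced on days 1 and 2 with a retrovirus encoding TY1-tagged Pparg, and collected on day 4. The ChIP library was made with an antibody against the TY1 tag, and the input library came from the same kind of cells without an antibody. Both libraries thus come from cultures given the introduced receptor, and there is no library of untransduced cells. Binding is that of the tagged protein made from a viral vector. There was 1 ChIP library of 10229438 mapped tags and no replicate, so no value here has a replicate check, and the labelled cell type was not checked against markers because a peak list holds no expression values.

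IL-4 drives TH2 differentiation and class switching to IgE, IL-13 acts on epithelium and smooth muscle, and IL-5 sustains eosinophils. In TH2 cells the genes are switched on together from shared control elements. The best known is the locus control region in the 3′ part of Rad50, a gene that itself encodes a subunit of a DNA break repair complex. Others are a conserved noncoding sequence between Il4 and Il13, a GATA3 response element upstream of Il13, an enhancer in the second intron of Il4, and an enhancer and a silencer 3′ of Il4. Kif3a encodes a motor subunit of kinesin-2, and Irf1 encodes an interferon-induced transcription factor of the TH1 programme. PPARγ binds DNA with its partner RXR at DR1 elements, direct repeats of AGGTCA with a single base between the copies.

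The sequence of the 1 peak is shown because every binding result at the locus rests on it. It is the plus strand of chr11:53713692-53713864 (mm10), read from the GRCm38 reference, and the capitals mark the DR1 match.

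Locus peak: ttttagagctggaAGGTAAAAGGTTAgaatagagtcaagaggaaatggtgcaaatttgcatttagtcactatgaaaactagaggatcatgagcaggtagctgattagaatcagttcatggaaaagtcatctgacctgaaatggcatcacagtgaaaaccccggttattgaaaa

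The peak lay in the intergenic sequence between Rad50 and Il5, upstream of both. Rad50 is read on the minus strand (53649519 to 53707319) and Il5 on the plus strand (53720794 to 53725106), so their 5′ ends face each other across a gap of 13.5 kb. The peak centre was 6.46 kb from the transcription start site (TSS) of Rad50 and 7.02 kb from that of Il5. The body of Irf1 (53770014 to 53778374, plus strand) began 56.2 kb away. Il13 (53631324 to 53634702) and Il4 (53602982 to 53618669), both on the minus strand, had their start sites at 79.1 kb and 95.1 kb, on the far side of Rad50. The body of Kif3a (53567379 to 53601967, plus strand) ended 111.8 kb from the peak, outside the 100 kb limit. Thus 5 of the 6 genes counted as having a peak within 100 kb, where 26.4% of all protein-coding genes and 35.7% of those on chromosome 11 did. The 5 genes share this 1 peak, so they are 1 observation and not 5.

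None of the 6 gene bodies held a peak centre, where 5.04% of all protein-coding genes did. With a limit of 10 kb, 2 of the 6 genes, Rad50 and Il5, had the peak (8.06% of all genes). At 50 kb the count was again 2 (17.2%), and at 200 kb it was 6 (40.4%), still through the same peak. By the nearest TSS of a protein-coding transcript the peak belonged to Rad50 alone (7.76% of all genes received a peak this way), although Il5 was only 0.557 kb farther away. The other protein-coding genes of the region, Shroom1, Gm9837, Sowaha, Gm9945 and Sept8 before Kif3a and Gm17334, Gm12216 and Slc22a5 from Irf1 onwards, had no peak in their bodies.

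**Figure D1:**
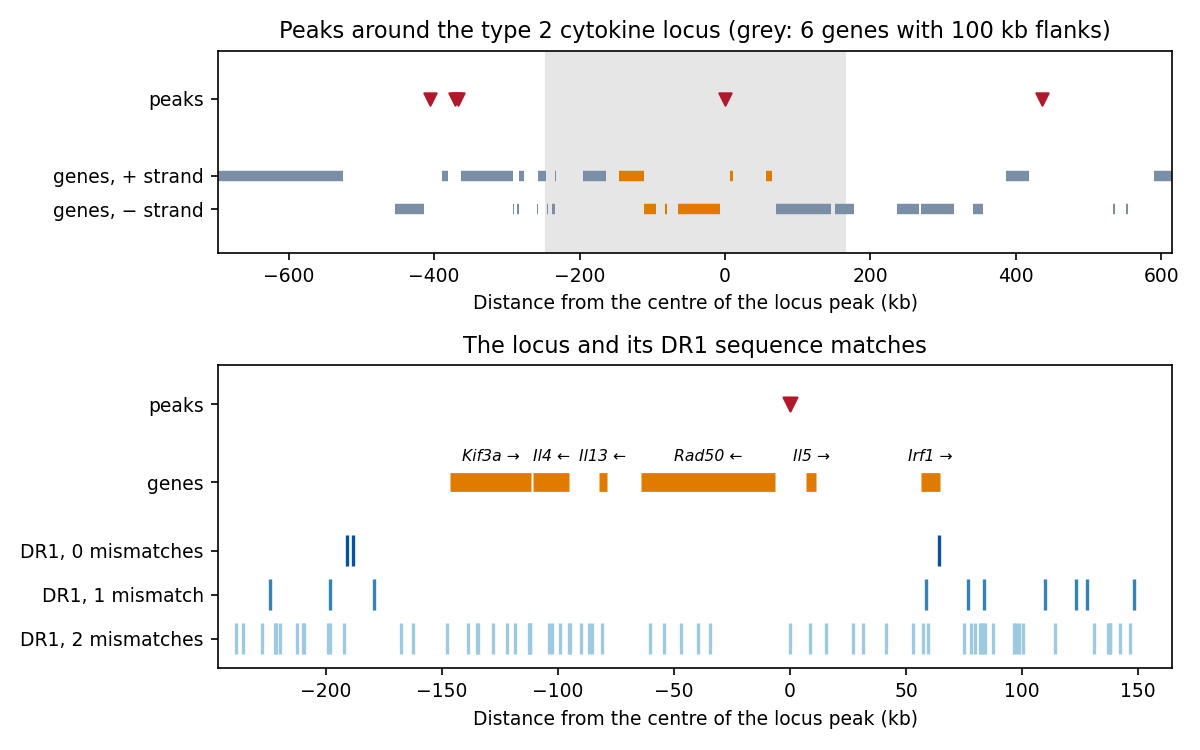
Map of the locus, with distance from the centre of the locus peak in kb on the horizontal axes. The upper panel shows peaks (red) and protein-coding genes (the 6 named genes in orange) with the 100 kb flanks in grey, and the lower panel adds DR1 sequence matches by number of mismatches: the single peak of the grey region sits between Rad50 and Il5, and the 13 matches with 0 or 1 mismatch lie away from it.

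The intervals in which the known control elements are described had no peak. The elements themselves were not mapped here: each was placed only in an interval between or within annotated genes, from the background given above. From the end of Kif3a to the middle of Rad50 (53601968 to 53678419), a stretch of 76.5 kb made up of these intervals, 0 peak centres were found. At the density of chromosome 11 a stretch of this length would hold 0.122 peaks, and 9.72% of the chromosome's windows of this length had 1 or more. A count of 0 was therefore the usual one. The part of Rad50 in which the locus control region was placed, taken as the 3′ 50% of the gene (53649519 to 53678419), ended 35.4 kb from the peak centre. The interval between Il4 and Il13 (12.7 kb long) ended 82.5 kb away, and the interval upstream of Il13, in which the GATA3 response element was placed (14.8 kb long), ended 64.3 kb away. For the 3′ elements of Il4 the bounds depend on the annotation. The GENCODE body of Il4 runs to within 1.01 kb of Kif3a, and with the shorter RefSeq body (53612460 to 53618665) the interval between Il4 and Kif3a is 8.21 kb long; neither interval nor the Il4 body had a peak. The gap between Rad50 and Il5 was 38.96% repeat-masked, where the other GENCODE intervals ranged from 12.8% to 37.3% and the RefSeq interval between Kif3a and Il4 reached 40.7%. The peak itself held no repeat-masked base. Only tags with a unique position were kept by the authors, so repeats within any interval could be read less completely.

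Peak density at the locus was set beside that of the chromosome. The span from Kif3a to Irf1 alone, 211.0 kb, held the 1 peak, and 21.1% of chromosome 11 windows of that length held 1 or more. The 6 genes with their flanks span 411.0 kb (53467379 to 53878374), which gives 2.43 peaks per Mb (exact 95% Poisson interval 0.0616 to 13.6, counting error only). Chromosome 11 held 189 peaks, or 1.59 per Mb outside assembly gaps (interval 1.37 to 1.84), and the autosomes together held 1.05 per Mb. The chromosome's density corresponds to 0.654 peaks in the length of the locus, so the count of 1 cannot be told apart from it. Of 289 windows of the same length along chromosome 11, 34.3% held 1 or more peaks, 47 held exactly 1 and 52 held more, up to 5. The locus is gene-rich, with 14 protein-coding genes against a median of 4 per window. Among the 30 windows with at least as many genes, 17 (56.7%) held a peak and the median was 1.

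The peak stood alone on both sides. The nearest peak before it was 366.7 kb away and the nearest after it 436.4 kb away, so 803.1 kb of the chromosome held no other peak. The median distance between neighbouring peaks on chromosome 11 was 195.8 kb (quartiles 48.3 and 622.1 kb), and 69 and 61 of the 188 distances were longer than these 2. Both distances reached 366.7 kb for 27 of the 187 peaks with a neighbour on either side (14.4%). The 2 peaks before the locus were intergenic, 3.80 and 8.43 kb from the start of Aff4, which encodes a scaffold of the super elongation complex. The first peak after it was intergenic as well, 42.9 kb from a start site of P4ha2, a collagen prolyl hydroxylase gene, and 97.1 kb from the body of Csf2, the gene of the cytokine GM-CSF. The second lay 9.76 kb from Fnip1, which encodes a folliculin partner.

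**Figure D2:**
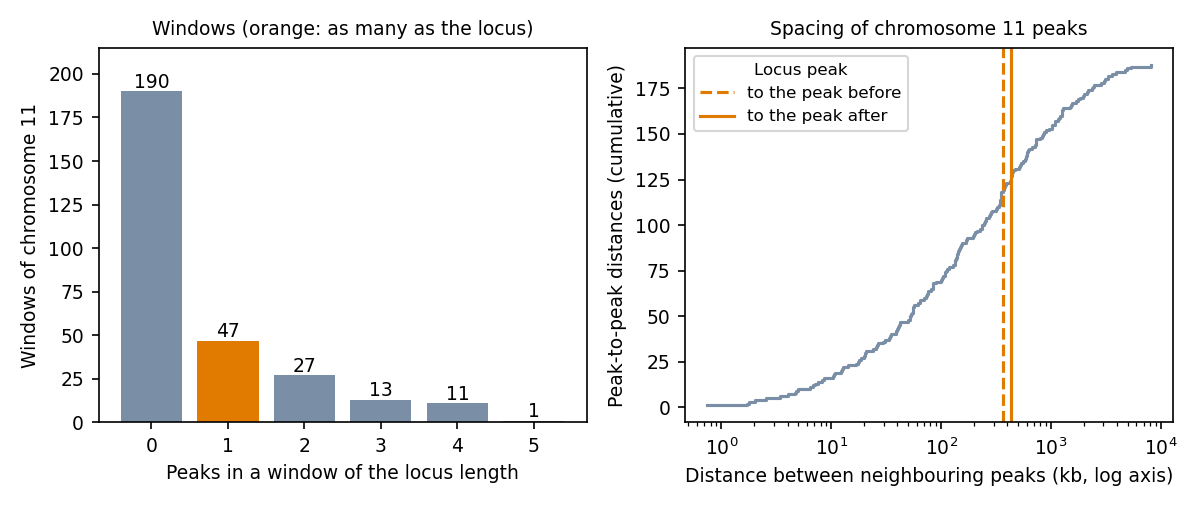
Left, the number of chromosome 11 windows of the locus length (vertical axis) with 0 to 5 peaks (horizontal axis); 47 windows held 1 peak, as the locus did, and 190 held none. Right, cumulative count of the 188 distances between neighbouring chromosome 11 peaks in kb on a log axis, with the distances of the locus peak to its neighbours, 366.7 and 436.4 kb, as vertical lines.

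The DR1 match of the locus peak had 2 mismatches in the 12 fixed bases, the most allowed, and lay at 53713705 to 53713717 on the plus strand. A match with up to 2 mismatches on either strand was present in 18.2% of all peaks and in 2.36% of the 173 bp tiles of chromosome 11, and one with up to 1 mismatch in 6.07% of peaks and 0.364% of tiles. The middle of the match was 67 bp from the peak centre. Among the 461 peaks with a match the median was 27 bp (quartiles 11 and 50), and 44 peaks (9.54%) had theirs as far out or farther. Nearer the centre, at 47 bp, the peak held an exact AGGTCA core (53713822 to 53713827, on the minus strand), as did 25.7% of peaks and 10.4% of tiles; no second copy of the core stood beside it within the mismatches allowed.

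Motifs of T cell factors were searched in the peak, and each is given beside its share of all peaks and tiles. The STAT motif TTCNNNGAA, the form bound by STAT5 and other STAT factors, matched once at 53713805 to 53713813, 31 bp from the centre (8.83% of peaks, 5.76% of tiles). The short NFAT motif GGAAA matched at 2 positions, 44 and 34 bp from the centre, and the second of these overlaps the STAT match; 49.3% of peaks and 43.7% of tiles hold this motif. No match was found for AP-1 (TGACTCA or TGAGTCA; 15.6% of peaks, 2.85% of tiles) or GATA (GATA with A or T before it and A or G after it; 33.9% and 30.1%). The same holds for the STAT6-type motif, TTC and GAA with 4 bases between them (7.21% and 4.67%), RUNX (TGTGGT; 16.2% and 12.9%), ETS (CCGGAA; 2.29% and 1.57%) and IRF (a pair of GAAA with 2 bases between them; 3.67% and 2.55%). All motifs were searched on both strands of the 173 bp peak, and a match is a description of the letters only. The peak was 38.2% G or C, below the median of 43.4% over all peaks (quartiles 38.7 and 48.0%).

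Closer matches to DR1 than that of the peak lay elsewhere in the region. Across the 411.0 kb there were 79 matches with up to 2 mismatches, 1 of them in the peak, and 13 with up to 1 mismatch, none of them in a peak. On chromosome 11 as a whole, 0.198% of 18192 matches with up to 2 mismatches and 0.290% of 2760 with up to 1 lay inside a peak (exact 95% binomial intervals 0.139 to 0.274% and 0.125 to 0.570%). Matches without a peak were thus the rule on the whole chromosome as well as at the locus. The matches that follow show the one inside the locus peak against exact or nearly exact copies in Irf1 and Sept8 that had no peak, and against those in the neighbouring peaks at Aff4 and Fnip1. Each is read 5′ to 3′ along its own strand. Capitals mark bases that match the repeat, and the single base between the copies and the mismatches are in lower case.

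Locus peak, 53713705 to 53713717: AGGTaAaAGGTtA
Irf1 intron, no peak, 53772119 to 53772131: AGGTCAgAGGcCA
Irf1 exon, no peak, 53777854 to 53777866: AGGTCAgAGGTCA
Sept8 intron, no peak, 53522647 to 53522659: AGGTCAaAGGTCA
Sept8 intron, no peak, 53525590 to 53525602: AGGTCAgAGGTCA
Peak near Aff4, 53346993 to 53347005: AGGTCAcAGtTCA
Peak near Fnip1, 54428412 to 54428424: AGGTCAgAGtaCA

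The 3 exact DR1 copies of the region thus lay in Sept8 and Irf1 with no peak (0.336% of exact copies on chromosome 11 lay in one), 2 of them in repeat-masked sequence, and the remaining 10 matches with 1 mismatch included 6 outside repeats. The peak nearer to Aff4 held a match with 1 mismatch 37 bp from its centre and the second peak after the locus one with 2 mismatches at 17 bp. The other 2 neighbouring peaks had none. The rates of matches per Mb were set beside those of the chromosome. Over the 411.0 kb they were 7.30 with 0 mismatches, 31.6 with up to 1 and 192.2 with up to 2, against 2.51, 23.2 and 153.2 on chromosome 11. In the gene span from Kif3a to Irf1 (211.0 kb) they were 9.48 with up to 1 mismatch and 161.1 with up to 2. No match with 0 or 1 mismatch lay in Kif3a, Il4, Il13, Rad50, Il5 or the sequence between them, and the 2 of the gene span were both in Irf1. Of the 34 matches with up to 2 mismatches in this span, 9 lay in Kif3a, 4 in Il4, 4 between Il4 and Il13, 1 in Il13, 4 in the 3′ 50% of Rad50 and 1 in its 5′ 50%. The gap between Rad50 and Il5 held 1, which is the match of the peak.

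Promoter sequences from RefSeq (GRCm38.p6), 250 bases before to 50 after a start site, were matched for 5 of the 6 genes, with 2 start sites each for Il4 and Irf1 and 1 each for Kif3a, Il13 and Il5. Rad50 was not matched, so the counts that follow leave it out. The 7 promoters overlapped no peak, and the middle of the Il5 promoter was 6.92 kb from the peak centre. The share of all RefSeq promoters that overlap a peak was not counted, so this absence is a description only. None of the 7 held a DR1 match with up to 2 mismatches (3.86% of all RefSeq promoters do), an AGGTCA core (16.3%) or an AP-1 match (5.20%). GATA matches were present in 4 of the 7, in both Il4 promoters and in those of Il13 and Il5, where 29.8% of all promoters have one. NFAT matches were present in 6 of 7 (61.3% of all promoters), with 5 at the upstream Il4 start and 4 at Il13. RUNX matched in the Il13 promoter only (16.8% of all promoters) and ETS in that of Kif3a only (14.9%). The upstream Il4 promoter also held the STAT6-type motif (6.95% of all promoters) and the IRF motif (3.44%), and the motif TTCNNNGAA occurred once in the other Il4 promoter and once in that of Irf1 (8.30%). NFAT and TTCNNNGAA letters, both present in the peak, occurred together in that other Il4 promoter and in the same Irf1 promoter. The peak had no match to the GATA letters present in these 4 cytokine promoters. NFAT letters and a lack of GATA letters are not particular to this peak, since 49.3% of all peaks hold NFAT letters and only 33.9% hold GATA letters. TTCNNNGAA letters were in 8.83% of peaks, and the share of peaks or promoters with both NFAT and TTCNNNGAA was not counted.

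Many genes of factors known to act on the locus had a peak. Of 13 transcriptional regulators of the cytokine genes, 9 had a peak in the body or within 100 kb, where 26.4% of all protein-coding genes did. The lists were chosen with earlier results of these data known, so the contrast is a description only. They were not matched on gene length or gene density, and the difference was not tested. Stat6, Stat5a and Stat5b, also genes of DNA-binding factors, were listed with the transducers below and had no peak within 100 kb. The share thus depends on how the lists were divided. Rbpj, the DNA-binding effector of NOTCH, had 5 peaks in its body and 10 within 100 kb. Ikzf1, which encodes Ikaros, had 2 in the body and 3 within 100 kb. Gata3, the lineage regulator of TH2 cells, and the NFAT genes Nfatc1 and Nfatc2 each had 1 peak in the body, and the one in Nfatc2 held a DR1 match with 2 mismatches. The nearest peaks to the AP-1 family gene Batf, the Il4 activator gene Maf, Irf4 and Junb lay 17.9, 18.7, 24.2 and 51.8 kb from their bodies. Batf had 3 peaks within 100 kb, Irf4 had 4, Maf had 2 and Junb had 1. Satb1, Runx3, Ctcf and Yy1 had none within 100 kb, with nearest peaks at 202.7, 780.6, 371.4 and 151.8 kb.

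Receptor and transducer genes of the 3 cytokines were counted next, again beside 26.4% of all genes. Of 7 receptor genes 1 had a peak within 100 kb (14.3%): Il4ra, the shared chain of the IL-4 and IL-13 receptors, held it inside its body. Il13ra1, Il13ra2, Il2rg, Il5ra, Csf2rb and Csf2rb2 had none within 100 kb, and the nearest was 415.5 kb from Csf2rb2. Il13ra1, Il13ra2 and Il2rg lie on chromosome X, which held 0.135 peaks per Mb against 1.05 on the autosomes. Of 7 genes of JAK and STAT proteins 1 had a peak within 100 kb (14.3%), Jak2, in its body. The receptor list and this list each had 1 of 7 within 10 kb and in bodies as well. Of all genes, 8.06% had a peak within 10 kb and 5.04% in the body. Stat6, the transducer of IL-4 signals, had its nearest peak at 317.1 kb and Jak1, Jak3, Tyk2, Stat5a and Stat5b at 152.5 kb or more.

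Among 8 other type 2 or linked cytokine genes, 3 had a peak within 100 kb (37.5%, all genes 26.4%) and 0 within 10 kb (all genes 8.06%). Il24 had 1 at 15.2 kb, with a DR1 match of 2 mismatches, and Il10 had 3, the nearest at 19.3 kb. Csf2 had the peak at 97.1 kb described above, which lay 115.1 kb from the neighbouring Il3. Il6, Il9, Il21 and Areg had none within 100 kb. For the neighbours of the cytokine genes the partners were counted in the same way, each list beside the same 26.4%. Of the 3 partners of RAD50, Nbn had a peak in its body and the kinase gene Atm had 2, the nearer at 31.0 kb, while Mre11a had none. Of 3 kinesin-2 partners, Kif3c had 1 at 20.6 kb. Of 5 further interferon regulatory factors, Irf8, Irf7 and Irf2 each had 1, at 27.5, 34.2 and 94.9 kb.

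**Figure D3:**
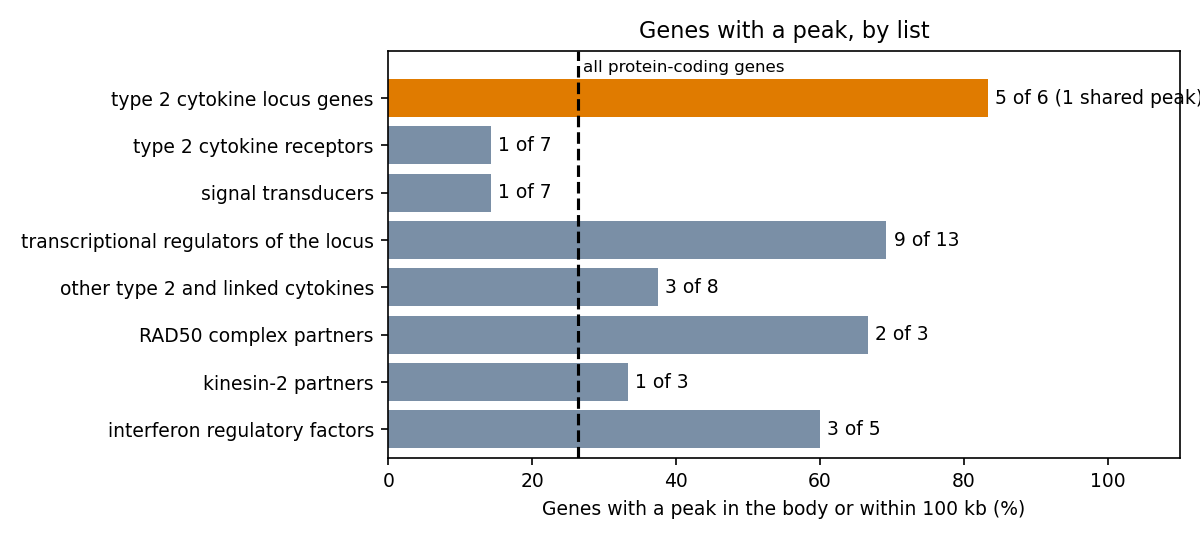
Percent of genes with a peak in the body or within 100 kb (horizontal axis) for the 6 locus genes (orange) and 7 gene lists, with the number of genes beside each bar; the dashed line is the 26.4% of all protein-coding genes. The locus genes' 5 of 6 come from 1 shared peak, and regulators of the locus reached 9 of 13 through separate peaks at each gene. The lists were chosen with earlier results of these data known. The STAT genes are counted as signal transducers and not as regulators.

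Other cytokine and lineage regions taken with the same 100 kb flanks gave counts between 0 and 3. Of all protein-coding genes, 26.4% had 1 or more peaks in the body or within 100 kb. The region of Il10 held 3 peaks in 205.1 kb (14.6 per Mb, exact 95% Poisson interval 3.02 to 42.7), none with a DR1 match. The Il10 peaks centred at 130989467 and 130990021 lie close together, and the interval takes them as separate counts. Il17a had 1 peak in 203.6 kb, with a match of 2 mismatches, and Gata3 had 1 in 233.0 kb without one. Ifng had 0 in 204.8 kb (interval up to 18.0 per Mb). The intervals given overlap that of the type 2 cytokine locus (0.0616 to 13.6 per Mb). Overlap of intervals is not a test, and no difference in density between the regions was tested at such counts.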

How the data were processed

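Alignment to mm10 with Bowtie2, the limit to tags of unique position and peak calling with HOMER are taken from the submitters' processing notes and the series text, which name no versions. Per the file headers, peaks needed at least 8 tags, 4 times the input and 4 times the local density, and 54617 of 10229438 tags lay in peaks. The deposited score is 1 in every row, so peaks have no strength here. Row order has no stated meaning, so no rank was drawn from the place of the locus peak, row 2388 of 2537.

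Coordinates count from 1. Gene bodies and start sites came from GENCODE vM21 (GRCm38, the assembly of mm10), and sequence and repeat masking from the RefSeq FASTA. Windows and tiles were laid end to end along chromosome 11, leaving out those with 50% or more assembly gap. Intervals are exact at 95% and cover counting error only. No test was run. The motif search and gene assignment were tested on simulated data. Named are the members, genes in the region, 2 peaks on either side, listed genes with a peak and 4 comparison regions; listed genes without a peak, motif matches and intervals were added after values were seen. Members and lists were chosen with earlier results of these data known. Tools were Python 3.11.15, pandas 2.3.3, numpy 2.4.6, matplotlib 3.10.9 and scipy 1.17.1.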

Additional observations from a re-analysis of the deposited data

How the results depend on the processing

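The count of 1 peak was the same with flanks of 10, 50 and 200 kb, with whole peak intervals and in the second 50% of the rows, and it was 0 within gene bodies and in the first 50% of the rows. Genes with the peak numbered 0 in bodies, 2 at 10 and at 50 kb and 1 by nearest TSS. The percent of all genes with a peak was 5.04, 8.06, 17.2 and 40.4 at flanks of 0, 10, 50 and 200 kb, against 26.4 at 100 kb. The density was 1.05 per Mb over the autosomes. The DR1 match was lost with up to 1 mismatch and with 0 (0 matches for each). The 46 listed genes gave 20 with a peak at 100 kb and 8 at 10 kb. The changes in gene and match counts came with the distance, assignment or match rule used. The parts of the rows differed because the 1 peak lies in the second 50%. For the autosomes the cause was not tested. The RefSeq gene bounds were added after seeing the data and gave 26.02% of genes. No paired analysis was possible because there was 1 ChIP library. With no tag count per peak, binding below the caller's threshold of 8 tags could not be seen.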

Other observations

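The stretch around the cytokine genes without a close DR1 match was long. From the match in Sept8 at 53534538 to that in the Irf1 intron at 53772119, 237.6 kb held no match with up to 1 mismatch, and the peak lay within it. The median step between neighbouring matches on chromosome 11 was 24.7 kb, and 42 of 2758 steps (1.52%) were as long or longer, the longest 710.9 kb. Such steps make up 12.7% of the sequence between matches. The stretch was noticed in the map before it was measured.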
